A study of Homo sapiens with 6 samples.

Results

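The 10 genes described here are the YAP and TEAD factors and a set of their regulators and target genes, namely YAP1, WWTR1, TEAD1, TEAD4, CTGF, CYR61, ANKRD1, AMOTL2, AJUBA and LATS2. They were taken by gene symbol from a table of 20288 protein-coding genes, and all 10 symbols had a row. The gene symbol TAZ in such a table names tafazzin, so the YAP paralog commonly called TAZ was read from its own symbol, WWTR1. SW1736 cells, an established human line of anaplastic thyroid cancer, were kept for 72 h at 21% O2 (normoxia, n = 3 libraries) or at 2% O2 (hypoxia, n = 3 libraries). Both groups shared the same line and medium. Small RNA was sequenced by CATS, a method that tails RNA with a free 3′ hydroxyl end instead of ligating adapters to it, so each count below is a short fragment aligned to an mRNA and not a count of whole messages. The libraries held between 1469151 and 1781753 counts over mature miRNAs and protein-coding transcripts. The labels number the replicates but do not say whether they were separate cultures, so p-values measure only the spread between these libraries.

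YAP (YAP1) and TAZ (WWTR1) are transcriptional coactivators that cannot bind DNA by themselves. They are held in the cytoplasm when the Hippo kinases, ending in LATS1 and LATS2, phosphorylate them. In the nucleus they bind the TEAD family of DNA-binding factors and switch on genes of the matrix, the cytoskeleton and growth, with CTGF, CYR61 and ANKRD1 as the classical readouts. Several targets, among them LATS2, AMOTL2 and AJUBA, encode proteins that act back on the pathway. As phosphorylation and location govern YAP and TAZ, the fragment counts of their own mRNAs do not measure their activity.

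Fragments of the hypoxia markers CA9 and NDRG1 rose at 2% O2, by 3.67 and 1.71 on the log2 scale (edgeR adjusted p = 5.68e-04 and 1.93e-04), CA9 on 4 counts over all normoxic libraries. Of 8 hypoxia check genes 7 passed the filter on low counts and 5 of these were called higher, while ADM was too low to test. VEGFA (log2 value 0.93, edgeR adjusted p = 0.131) and SLC2A1 (0.35, edgeR adjusted p = 0.443) also lay above 0 but did not pass the test. The line kept the thyroid factor PAX8, at 109 to 156 normalized CPM (counts scaled to equal library size), while thyroglobulin (TG), the defining product of thyroid follicular cells, had between 0 and 6 counts per library. Only 3 of 9 thyroid markers passed the filter on low counts: PAX8, FOXE1 (28 to 59 counts) and DIO2 (6 to 26 counts). Of 11 markers of other cell types 7 passed that filter, and 1 of them rose. The leukocyte marker PTPRC had between 1 and 9 counts and the epithelial markers EPCAM and CDH1 at most 6. The keratins KRT8 and KRT18 had 26 to 66 counts. The endothelial markers PECAM1 and CDH5 passed the filter with 8 to 17 and 7 to 25 counts, and their groups overlapped. The macrophage marker CD68 had 8 to 14 counts in normoxia and 13 to 23 in hypoxia, where its scaled values lay higher without overlap (edgeR adjusted p = 0.51). Of the mesenchymal genes, FN1 had 14632 to 23216 normalized CPM and a log2 value of 0.02 (edgeR adjusted p = 0.985), and VIM had between 3182 and 4719. VIM rose by 0.39 on the log2 scale (edgeR adjusted p = 0.0198), although it was not called in 4 of the 6 fits that leave out 1 library. The part of these markers in the values below was not tested.

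TEAD factors recognise the core GGAATG, which was looked for here in the promoters of the 10 genes. The RefSeq windows (GRCh38.p14) from 250 bases before to 50 after a transcription start were searched for GGAATG on both strands. At least 1 match lies in 14.0% of 35116 such windows, at least 2 in 1.36% and at least 3 in 44 windows. Windows of 7 of the 10 genes were used (CYR61, TEAD1 and TEAD4 were not matched). A match lies in 6 of their 10 windows, in 6 genes. The windows of CTGF and ANKRD1 are shown because they hold the most matches, with the matches in capitals, read 5′ to 3′ along the minus strand, on which both genes lie (chr6:131951323-131951622 and chr10:90921038-90921337).
CTGF promoter: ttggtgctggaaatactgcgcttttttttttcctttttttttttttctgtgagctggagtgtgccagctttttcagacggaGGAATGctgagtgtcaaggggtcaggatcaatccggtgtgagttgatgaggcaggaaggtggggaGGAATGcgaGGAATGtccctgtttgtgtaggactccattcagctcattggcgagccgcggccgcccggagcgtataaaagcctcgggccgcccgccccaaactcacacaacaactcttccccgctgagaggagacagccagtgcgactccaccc
ANKRD1 promoter: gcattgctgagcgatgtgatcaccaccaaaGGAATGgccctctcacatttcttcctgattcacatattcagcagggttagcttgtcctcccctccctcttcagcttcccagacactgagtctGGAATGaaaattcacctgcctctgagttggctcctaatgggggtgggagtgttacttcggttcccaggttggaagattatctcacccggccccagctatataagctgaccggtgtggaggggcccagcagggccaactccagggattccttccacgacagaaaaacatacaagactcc
CTGF had 3 matches, at -169 to -164, -104 to -99 and -95 to -90 from the start, and ANKRD1 had 2, at -220 to -215 and -128 to -123. YAP1 itself, AMOTL2 and AJUBA had 1 match each, the latter pair in the window of the second of 2 starts and AMOTL2 in the reverse complement. Their surroundings are chr11:102110273-102110302 (plus strand), chr3:134374499-134374528 and chr14:22976884-22976913 (both minus strand).
YAP1 site: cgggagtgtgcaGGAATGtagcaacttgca
AMOTL2 site: ctgaaactctcaCATTCCtggcatagcagc
AJUBA site: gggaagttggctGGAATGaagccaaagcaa
LATS2 had a match just after its start, at 10 to 15, and WWTR1 had none in the windows of its 2 starts. A match is a run of letters and was not tested as a binding site.

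No YAP or TEAD gene passed the test between hypoxia and normoxia. All 10 genes passed the filter on low counts, and 0 of 10 had an adjusted p under 0.05 in the quasi-likelihood test of edgeR. Over all 11082 protein-coding features tested, 0.758% were called, 0.596% higher and 0.162% lower, so a list of 10 genes without a call is near the background. The median log2 fold change of the group was 0.01, against -0.01 over all protein-coding features, with 5 values above 0 and 5 below. At an unadjusted p under 0.05, 1 gene was higher (ANKRD1, where 5.58% of all features were) and 1 was lower (WWTR1, where 4.67% were). Limma-voom called none either, nor did DESeq2, which gave an adjusted p for 9 of the 10 (all but TEAD4). Summed over the 10 genes, the level was 1079 to 1171 normalized CPM in normoxia and 1069 to 1103 in hypoxia, and these ranges overlap.

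**Figure D1:**
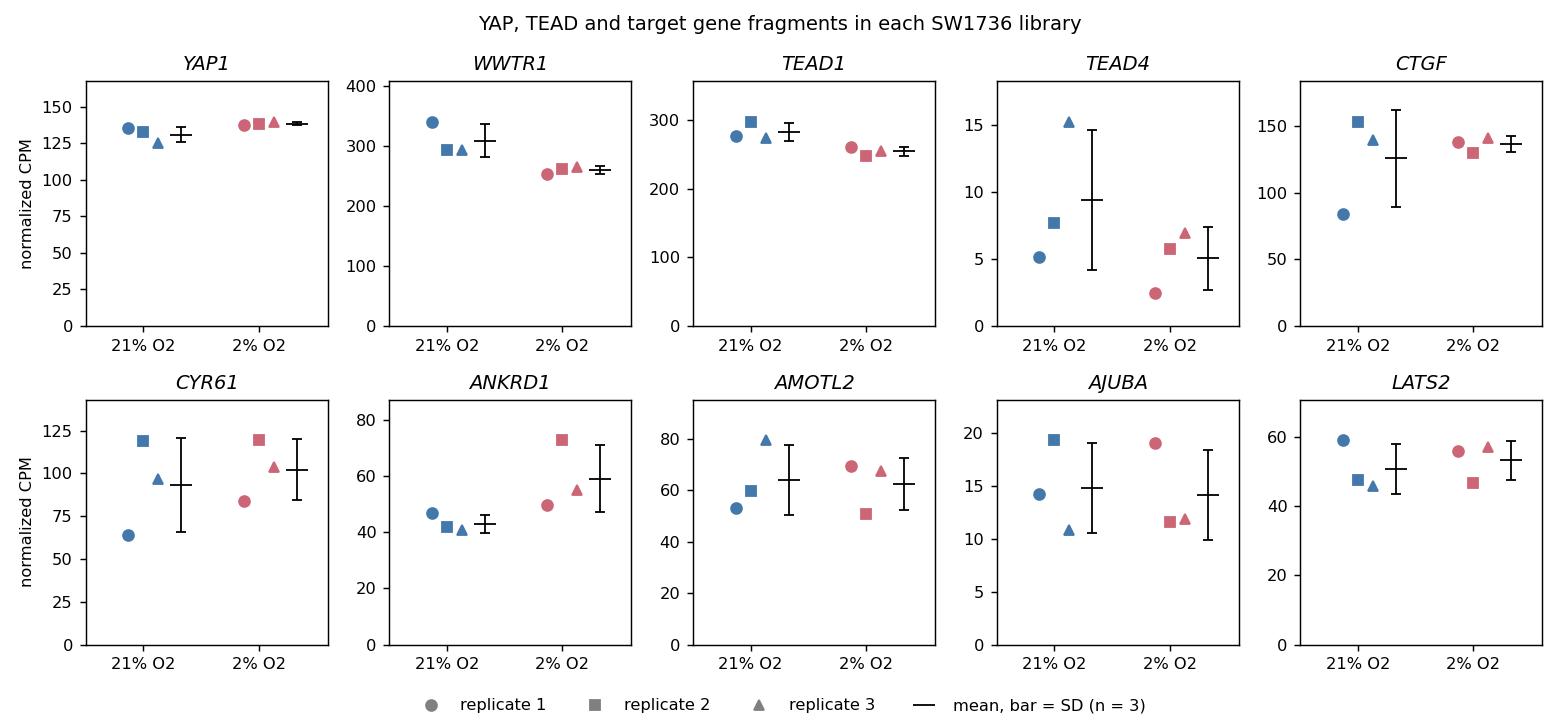
Normalized CPM (vertical axis, from 0) of the 10 genes in each library at 21% O2 (blue) and 2% O2 (red), with circle, square and triangle for replicates 1, 2 and 3 and a bar for the mean and SD (n = 3). The hypoxic points of WWTR1 and TEAD1 sit below the normoxic ones and those of YAP1 and ANKRD1 above, and CTGF and CYR61 have a low point in normoxia replicate 1.

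The size of change that these data leave room for was bounded for most of the genes. For 7 of the 10 the 95% interval of the log2 fold change lay within 0.585 on either side of 0, that is, within a 1.5-fold change. The interval reached further for TEAD4 and AJUBA, which had few counts, and for ANKRD1. An interval within these bounds was found for 41.5% of all 11082 features, a share not compared at equal counts. The narrowest bounds belonged to the abundant factors YAP1, WWTR1 and TEAD1, and the widest to TEAD4.

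**Figure D2:**
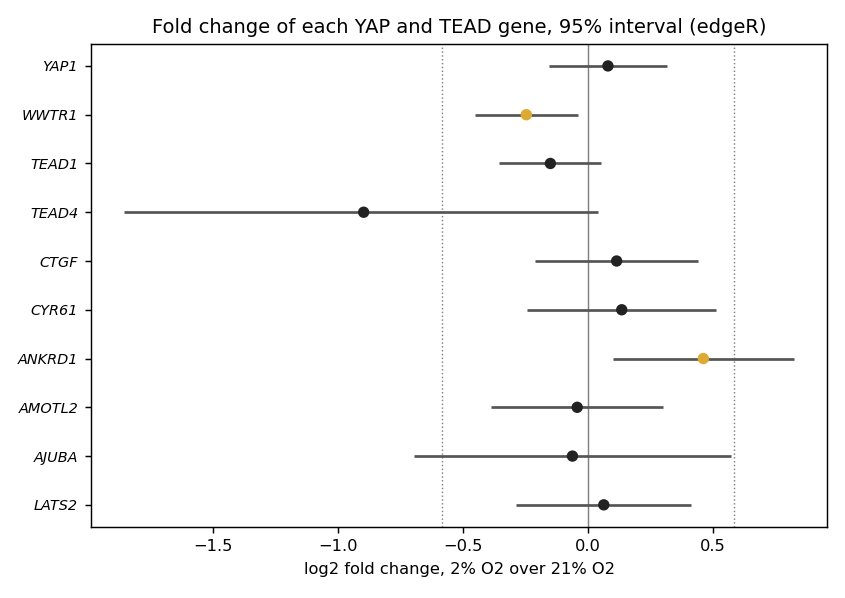
Log2 fold change (horizontal axis, 2% O2 over 21% O2) of the 10 genes with the 95% interval from edgeR, yellow where the unadjusted p is under 0.05, with dotted lines at a 1.5-fold change. WWTR1 (-0.25) and ANKRD1 (0.46) are the 2 yellow points, and no gene passed after adjustment.

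Neither coactivator passed the test, and the fitted values of WWTR1 and YAP1 had opposite signs. WWTR1, which encodes TAZ, had 340.1, 294 and 293 normalized CPM in normoxia (replicates 1, 2 and 3, the order used throughout) and 253, 262 and 265 in hypoxia. Every hypoxic library thus lay below every normoxic one, and normoxia replicate 1 stood highest. The log2 fold change was -0.25 (standard error, SE, 0.102, 95% interval -0.45 to -0.04, edgeR adjusted p = 0.358). Without normoxia replicate 1 it was -0.17 (edgeR unadjusted p = 0.157). YAP1 had 135, 132 and 125 normalized CPM in normoxia and 137, 138 and 139.7 in hypoxia. These 6 values span a narrow range, and the groups lie side by side without overlap. Its log2 fold change was 0.08 (SE 0.116, 95% interval -0.16 to 0.32, edgeR adjusted p = 0.873), and 0.046 without normoxia replicate 3. In GRCh38, YAP1 lies on the plus strand of chromosome 11 from 102110447 to 102233424 and WWTR1 spans 149517235 to 149736714 of chromosome 3, minus strand. Antisense genes overlap 628 exonic bases of the counted YAP1 transcript and 311 of that of WWTR1 in GENCODE 44. Whether the counting used strand is not given in the sources used here, so fragments of these partners cannot be told apart there.

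Set against each other within a library, which removes the scaling, the 2 coactivators gave ratios that did not overlap between the conditions. As YAP1 lay higher and WWTR1 lower in hypoxia without overlap, the ratio had to separate. The ratio and its test are therefore no separate result. The ratio of YAP1 to WWTR1 counts was 0.398, 0.451 and 0.427 in normoxia and 0.542, 0.527 and 0.526 in hypoxia. The ratio was higher in all 3 hypoxic libraries, with means of 0.425 ± 0.0264 and 0.532 ± 0.009 (SD, n = 3 each). An exact two-sided permutation test gave p = 0.1, the smallest that 3 libraries against 3 allow, and p = 0.3 after Benjamini-Hochberg adjustment over the 3 ratios computed. With 1 library left out the mean difference ran from 0.093 to 0.119. As fragments of transcripts of unequal length, these counts give the shift of the ratio but not the ratio of molecules. Of the 20-base windows of each transcript, 0.0558% for YAP1 and 0.0599% for WWTR1 occur without mismatch in the other. Whether shorter or mismatched fragments were assigned to the wrong paralog was not tested.

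**Figure D3:**
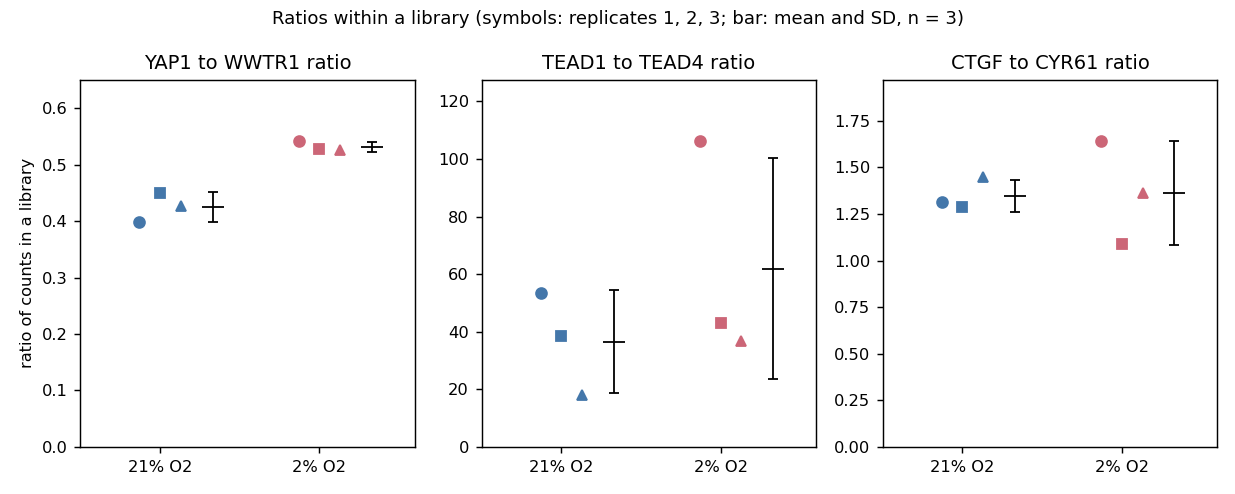
Ratio of counts within each library (vertical axis, from 0) for YAP1 to WWTR1, TEAD1 to TEAD4 and CTGF to CYR61 at 21% O2 (blue) and 2% O2 (red), with the mean and SD (n = 3) as a bar. Only the first ratio separates the groups, at 0.398 to 0.451 against 0.526 to 0.542.

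TEAD1 supplied most fragments of the TEAD family in these cells. Of all TEAD1 to TEAD4 counts it held 88.0 ± 3.25% in normoxia and 89.8 ± 1.69% in hypoxia (n = 3, SD), without correction for length. TEAD1 had 277, 297 and 273.05 normalized CPM in normoxia and 260.5, 247 and 255 in hypoxia. All 3 hypoxic libraries were below all normoxic ones. The log2 fold change of -0.15 did not pass the test (SE 0.101, 95% interval -0.36 to 0.05, edgeR adjusted p = 0.653). TEAD4 had 5.18, 7.71 and 15.2 normalized CPM in normoxia and 2.45, 5.77 and 6.95 in hypoxia, on 4 to 24 counts per library. The groups overlap, and normoxia replicate 3 was the highest. Its log2 fold change was -0.90 (SE 0.468, 95% interval -1.86 to 0.04, edgeR adjusted p = 0.51) and was -0.36 without normoxia replicate 3. The ratio of TEAD1 to TEAD4 counts averaged 36.6 (SD 17.8) under normoxia and 62.0 (SD 38.5) under hypoxia. The exact permutation test, two-sided, gave p = 0.5, and 0.75 adjusted over the 3 ratios. The difference of 25.4 shrank to 3.20 without hypoxia replicate 1.

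The other family members, TEAD2 and TEAD3, did not pass the test either. TEAD3 had 10.4, 10.3 and 8.25 normalized CPM in normoxia and 6.13, 6.92 and 2.78 in hypoxia, on 4 to 16 counts (log2 fold change -0.83, edgeR adjusted p = 0.496). The hypoxic values lay below the normoxic ones. For TEAD2 the fold change was -0.07 on the log2 scale (edgeR adjusted p = 0.958). Of the 20-base windows, 3.13% of the TEAD4 transcript, 2.12% of TEAD3, 0.702% of TEAD2 and 0.0828% of TEAD1 occur in another TEAD transcript. TEAD1 lies on chromosome 11 from 12674421 to 12944737 and TEAD4 on chromosome 12 from 2959330 to 3040676, both on the plus strand of GRCh38.

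CTGF and CYR61, secreted matrix proteins and the most used readouts of YAP activity, had overlapping levels in the 2 conditions. CTGF had 84.2, 153 and 139.7 normalized CPM in normoxia and 138, 129.7 and 141 in hypoxia. The hypoxic libraries all lay within the normoxic range, which normoxia replicate 1 stretched downwards. For CTGF the log2 fold change was 0.11 (SE 0.157, 95% interval -0.21 to 0.44, edgeR adjusted p = 0.864). CYR61 had 64.1, 119 and 96.5 normalized CPM in normoxia and 84.0, 119 and 104 in hypoxia. Normoxia replicate 1 was again the lowest, and the groups overlap. Its fold change was 0.14 on the log2 scale (SE 0.18, 95% interval -0.24 to 0.51, edgeR adjusted p = 0.859). Without normoxia replicate 1 both signs turned, to -0.10 for CTGF and -0.07 for CYR61, and neither passed the test (edgeR adjusted p = 0.898 and 0.943), so no direction can be given for either gene. CTGF spans 131948176 to 131951372 of chromosome 6, minus strand, where an antisense gene, LINC01013, overlaps 278 bases of its transcript, and CYR61 lies on the plus strand of chromosome 1 from 85580761 to 85584589 (GRCh38, where GENCODE 44 calls them CCN2 and CCN1).

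Of the 10 genes, CTGF and CYR61 spread furthest beyond counting noise across replicates. The spread of counts within the groups, as a multiple of what counting alone gives, was 8.39 for CTGF and 8.86 for CYR61, higher than for 97.6% and 97.8% of all features. It was 0.176 for YAP1, 0.603 for TEAD1 and 1.97 for WWTR1, against a median of 1.54 over all features. In relative terms the SD of CTGF was 29.0% of the mean in normoxia and 4.30% in hypoxia, and that of CYR61 was 29.5% and 17.3%. By that measure TEAD4, on few counts, spread further (55.8% and 46.1%). The ratio of CTGF to CYR61 counts nevertheless stayed at 1.29 to 1.45 in the 3 normoxic libraries, and both genes were lowest in the same one. In hypoxia it was 1.09 to 1.64, and the group means of 1.35 ± 0.0862 and 1.36 ± 0.278 (SD, n = 3 each) did not separate (exact two-sided permutation test, p = 1).

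ANKRD1, an ankyrin repeat protein of muscle and stressed cells, had the highest fold change of the group. It had 46.7, 41.8 and 40.6 normalized CPM in normoxia and 49.6, 72.6 and 54.9 in hypoxia. Each hypoxic value exceeded each normoxic one, with hypoxia replicate 2 standing apart from the other two. The log2 fold change of 0.46 did not pass the test (SE 0.179, 95% interval 0.10 to 0.82, edgeR adjusted p = 0.295). It was 0.27 without hypoxia replicate 2, and the adjusted p ran from 0.216 to 0.792 over all alternatives. Of the 10 genes, 2 lay higher without overlap between the groups (YAP1 and ANKRD1), as did 8.27% of all features, and 2 lay lower (WWTR1 and TEAD1), as did 7.01%. In GRCh38, ANKRD1 spans 90912096 to 90921087 of chromosome 10, minus strand.

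The targets that act back on the pathway had overlapping groups and did not pass the test. LATS2, the kinase that phosphorylates YAP and TAZ, had 59.0, 47.6 and 45.7 normalized CPM in normoxia and 55.8, 46.7 and 57.0 in hypoxia. AMOTL2, an angiomotin that binds YAP at junctions, had 53.1, 59.8 and 79.4 in normoxia and 69.3, 50.7 and 67.4 in hypoxia. AJUBA, a LIM protein that restrains the LATS kinases, had 14.2, 19.3 and 10.8 in normoxia and 19.0, 11.5 and 11.8 in hypoxia. The 2 conditions overlap in each of these 3 genes. The log2 fold changes were 0.06 for LATS2 (95% interval -0.29 to 0.41), -0.04 for AMOTL2 (-0.39 to 0.30) and -0.06 for AJUBA (-0.70 to 0.57), with edgeR adjusted p = 0.946, 0.961 and 0.974. The sign of each turned in at least 1 of the fits that leave out a library. The fold change of the paralog LATS1 was -0.12 on the log2 scale (95% interval -0.42 to 0.17, edgeR adjusted p = 0.834), and -0.061 without hypoxia replicate 3. In GRCh38, LATS2 lies on chromosome 13 from 20973036 to 21061586, AMOTL2 on chromosome 3 from 134355347 to 134375479 and AJUBA on chromosome 14 from 22971177 to 22982551, all on the minus strand.

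Compared per length, WWTR1 and TEAD1 were the most abundant factors. Per kilobase of the deposited transcript length, the normoxic level in normalized CPM was 61.4 ± 5.39 for WWTR1, 53.7 ± 15.6 for CTGF, 40.7 for CYR61 (libraries from 28.01 to 51.9), 33.3 ± 1.52 for TEAD1 and 24.3 ± 0.982 for YAP1 (SD, n = 3). The libraries of WWTR1, CTGF, CYR61 and TEAD1 overlap from one gene to the next in this order, while TEAD1 and YAP1 stand apart. Below them came ANKRD1 at 21.7 ± 1.61, AMOTL2 at 14.2 ± 3.02, LATS2 at 9.21 ± 1.30, TEAD4 at 5.55 ± 3.10 and AJUBA at 3.47 ± 1.00. YAP1 and ANKRD1 overlap, as do LATS2 with TEAD4 and TEAD4 with AJUBA. The study's methods set aside reads on non-coding parts of mRNAs, and per kilobase of coding length TEAD1 came first (285, libraries from 276 to 299.9, overlapping with WWTR1), followed by WWTR1 (257 ± 22.6), CTGF (120.0 ± 34.8) and YAP1 (85.9 ± 3.48). The coding length used for TEAD1 was 990 bases, against 1302 to 1350 for TEAD2, TEAD3 and TEAD4. A longer coding length would lower its value, so first place for TEAD1 rests on that length. In hypoxia the order per transcript length began with CTGF (58.2 ± 2.50) and WWTR1 (51.7 ± 1.27), which did not overlap. Per coding length WWTR1 (217 ± 5.34) lay above CTGF (130 ± 5.59) in hypoxia, also without overlap. The order of these genes thus rests on the length used.

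**Figure D4:**
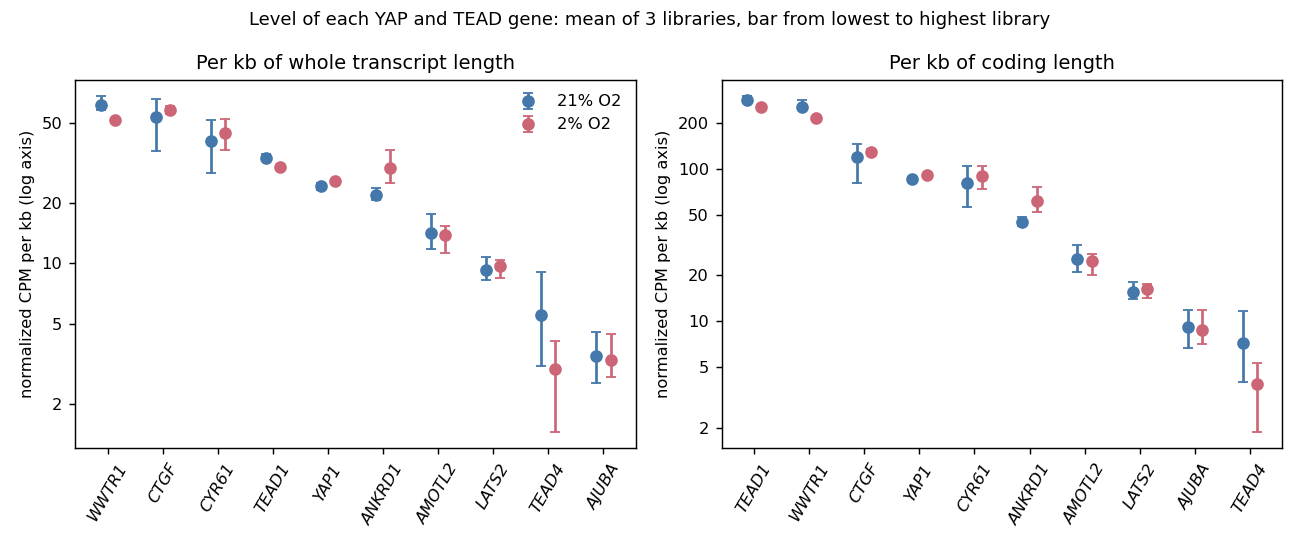
Level of the 10 genes in normalized CPM per kb (log axis) of whole transcript length (left) and coding length (right), as the mean of 3 libraries with a bar from the lowest to the highest library, at 21% O2 (blue) and 2% O2 (red). In normoxia WWTR1 leads per transcript length and TEAD1, on a coding length of 990 bases, per coding length. AJUBA and TEAD4 are lowest on both scales.

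The rest of the Hippo pathway gave no call. Of 30 listed genes (kinases, adaptors, upstream regulators and the other TEAD and VGLL factors), 29 passed the filter on low counts, 0 had an adjusted p under 0.05, and DCHS1 was too low to test. Over all protein-coding features 0.758% were called, so a list of 29 genes without a call is near the background. The median log2 fold change of the 29 was 0.01, with 16 values above 0 and 13 below. FRMD6, a FERM protein upstream of the Hippo kinases, was the only one past an unadjusted p of 0.05, where 10.3% of all features were. It went from 77.8 ± 11.4 to 95.4 ± 5.73 normalized CPM (SD, n = 3), or 0.30 on the log2 scale (edgeR adjusted p = 0.463). Without normoxia replicate 2 the log2 value was 0.20. For 22 of the 29 the 95% interval lay within a 1.5-fold change in either direction, as it did for 41.5% of all features. These shares were not compared at equal counts, on which the width of an interval depends.

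Further target genes gave no call, with more values above 0 than below. The 20 genes come from a widely used YAP target signature, less the genes described above and PTPN14, and 4 other known targets. PTPN14 was counted with the Hippo pathway genes instead. Of the 18 that passed the filter (all but FOXF2 and EDN1), 0 passed an adjusted p of 0.05, as against 0.758% of all features. At an unadjusted p under 0.05, 6 were higher and 1 was lower (5.58% and 4.67% of all features). The median log2 fold change was 0.15 against -0.01 over all protein-coding features. Among the 6, IGFBP3, a binding protein of insulin-like growth factors, had 129, 119 and 114 normalized CPM in normoxia and 192, 167 and 143 in hypoxia. F3, tissue factor, had 46.0, 73.9 and 54.0 in normoxia and 85.8, 87.6 and 86.9 in hypoxia. The groups do not overlap in either gene, as was the case, with hypoxia higher, for 8.27% of all features. Their log2 fold changes were 0.47 (SE 0.122, edgeR adjusted p = 0.0506) and 0.58 (SE 0.159, edgeR adjusted p = 0.0801). Each was called in 1 of the 6 fits that leave out a library, IGFBP3 without hypoxia replicate 3 and F3 without normoxia replicate 2. Over all alternatives the adjusted p ran from 0.0192 to 0.284 for IGFBP3 and from 0.00604 to 0.405 for F3.

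Further genes past an unadjusted p of 0.05 in the same direction were NT5E, the ecto-enzyme CD73 that makes adenosine, MYOF, a membrane repair protein, and TNFRSF12A, the receptor of TWEAK. Their log2 fold changes were 0.32 for NT5E, 0.23 for MYOF and 0.55 for TNFRSF12A (edgeR adjusted p = 0.236, 0.321 and 0.244). The groups do not overlap in these genes, by a margin of 42.5 against 42.9 normalized CPM for TNFRSF12A. Of all 18 further target genes tested, 6 lay higher without overlap, where 8.27% of all features did. With a library left out the value fell to 0.18 for NT5E (normoxia replicate 2) and 0.35 for TNFRSF12A (normoxia replicate 1). IGFBP3 and NT5E are also known as targets of HIF, the hypoxia-inducible factor, whose part in these values was not tested. CCDC80, a secreted matrix protein, lay lower, with 444, 417 and 441 normalized CPM in normoxia and 322, 355 and 325 in hypoxia (log2 fold change -0.38, SE 0.0976, edgeR adjusted p = 0.0527). It was called lower without normoxia replicate 2 and in none of the other 5 fits that leave out a library, and its adjusted p ran from 0.0334 to 0.236 over all alternatives. As 1 of the 18, it lay lower without overlap, as did 7.01% of all features.

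THBS1 encodes thrombospondin 1, a matrix glycoprotein. It had 849, 1578 and 848 normalized CPM in normoxia and 1105, 1155 and 1434 in hypoxia, and normoxia replicate 2 alone exceeded every hypoxic library. Its fold change was 0.17 on the log2 scale (SE 0.306, edgeR adjusted p = 0.907). Without normoxia replicate 2 it was 0.54 and passed the test (edgeR adjusted p = 0.00344). The value dropped to 0.022 and 0.020 when normoxia replicate 1 or 3 was left out, and to 0.052 when hypoxia replicate 3 was, so its size depends on single libraries.

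**Figure D5:**
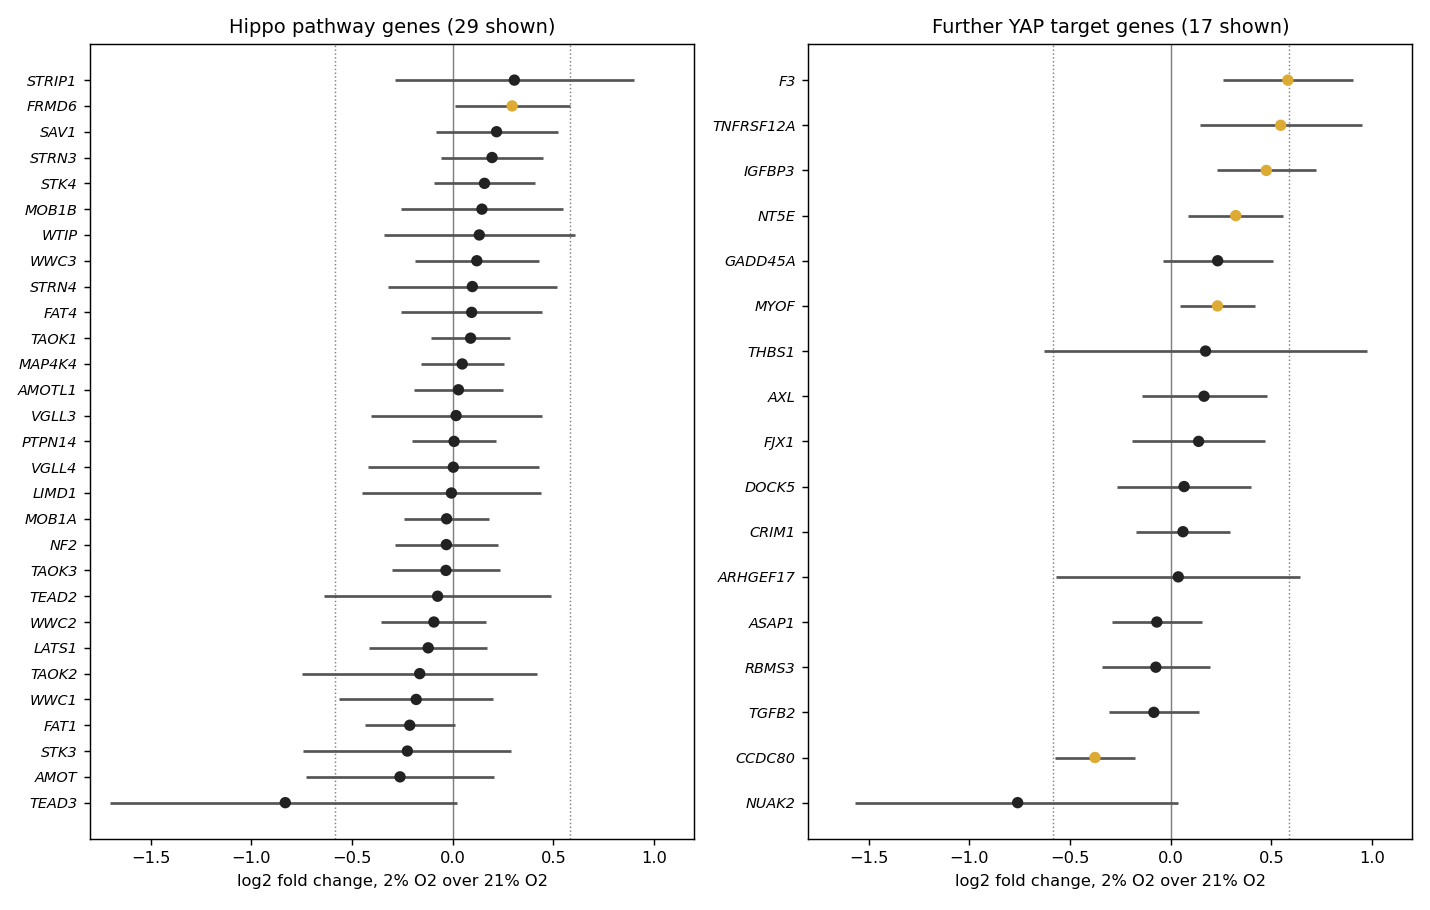
Log2 fold change (horizontal axis, 2% O2 over 21% O2) with the 95% interval for the 29 tested Hippo pathway genes (left) and 17 of the 18 tested further target genes (right), yellow where the unadjusted p is under 0.05, with dotted lines at a 1.5-fold change. The left list is centred near 0 and the list on the right has 13 of 18 tested values above 0, where 49.0% of all features were.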

How the data were processed

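The deposited tables hold raw counts, which the authors made by trimming adapters and poly(A) tails with Cutadapt, setting aside reads of housekeeping small RNAs, and aligning the rest in turn to miRBase 22 miRNAs and GENCODE 28 transcripts, with reads per transcript taken by eXpress. The labels name Bowtie, Bowtie2 and hg38. One transcript stands for each gene. Here both tables (2656 miRNAs and 20288 genes) were joined, filtered with filterByExpr to 11276 features (11082 protein-coding), scaled by TMM and fitted with edgeR 4.0.16 (R 4.3.3) by the robust quasi-likelihood test of 3 hypoxic against 3 normoxic libraries, with Benjamini-Hochberg adjustment over all features and a threshold of 0.05. Standard errors and 95% intervals come from the same fit. Normalized CPM are counts scaled to the TMM-adjusted library size. Coordinates, coding lengths and antisense genes are from GENCODE 44 on GRCh38, promoter windows from RefSeq. Replicates of a group differed by more than counting noise. Alternatives used DESeq2 1.42.0 and limma 3.58.1. The genes and lists were chosen with earlier results of these data known. All 10 genes were named, and of the other lists those past the unadjusted threshold, 4 paralogs and targets (TEAD2, TEAD3, LATS1 and THBS1) and check genes. Of the check genes, VEGFA, SLC2A1, ADM, FOXE1, DIO2, PTPRC, EPCAM, CDH1, KRT8, KRT18, PECAM1, CDH5, CD68 and FN1 were added after their values were seen. Of the further target genes, 1 is counted with its list but not reported here by name. The fit was tested on simulated data.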

Additional observations from a re-analysis of the deposited data

How the results depend on the processing

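No YAP or TEAD gene and no Hippo pathway gene was called under any alternative tried: DESeq2 (which gave low genes such as TEAD4 and TEAD3 no adjusted p), limma-voom, median-of-ratios size factors, no filter on low counts, the mRNA table alone, a replicate block, no robust prior (added after seeing the data) and each library left out. Of 130 values of the 10 genes under these alternatives 9 changed sign, all with 1 library left out, and the lowest adjusted p was 0.216. The log2 values under leave-one-out ran from -0.10 to 0.28 for CTGF, -0.072 to 0.35 for CYR61, -0.16 to 0.14 for AMOTL2, -0.34 to 0.17 for AJUBA, -0.0088 to 0.19 for LATS2 and -0.28 to 0.25 for TEAD2, and the difference in the CTGF to CYR61 ratio from -0.124 to 0.153. Of the further target genes, 2 were called higher without the filter on low counts, 1 with the mRNA table alone and 0 to 2 with a library left out, while 1 was called lower with median-of-ratios size factors, 1 without the filter and 0 to 1 with a library left out. Of all protein-coding features 66 were called higher and 18 lower. The numbers were 34 and 4 by DESeq2, 11 lower by limma-voom, 44 lower without the filter (which tested 19624), and 26 to 80 higher and 3 to 39 lower with a library left out. The cause was not tested. With the replicate number as a block, 60 features were called higher and 14 lower, and the lowest adjusted p among the 10 genes was 0.388. The deviations of equally numbered libraries correlated at -0.0041, 0.0030 and -0.095. With 3 libraries per group this cannot exclude that equal numbers were handled together, and no pairing was assumed in the main fit. Low counts limit TEAD4, TEAD3 and AJUBA.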

Other observations

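The target genes did not share 1 order over the normoxic libraries. This was looked at after the low CTGF and CYR61 values of normoxia replicate 1 were seen, and it is a description with no test. Of 24 measured YAP target genes (6 of the 10 genes described above and the 18 further ones), 10 were lowest in normoxia replicate 1, 2 in replicate 2 and 12 in replicate 3, against 32.0%, 33.5% and 34.5% of all features. Normoxia replicate 2 held the highest value in 13 of the 24 (54.2%, against 35.7% of all features). THBS1, CTGF and CYR61 are among these 13, and their spread within groups was 146, 8.39 and 8.86 times that of counting alone.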
